A study of Bos taurus with 4 samples.

Results

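The sequences described here are the bovine oocyte piRNAs that the deposited annotation assigned to a compact cluster on chromosome 9, from 23712000 to 23719387, a span of 7388 bp. They were chosen by that cluster name, after any bracketed mismatch note was removed, and no other cluster name lay within or across these ends. The name was held by 3491 of the 2468643 distinct sequences of the 4 libraries, with 689 seen in input 1, 628 in input 2, 2133 in TDRKH IP 1 and 2093 in TDRKH IP 2. The cluster was singled out because it holds several of the most abundant sequences, so its abundance and dominance are given as a description. The sources used here name no genome build for these coordinates, and gene annotation around the cluster was not analysed here.

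The RNA came from cattle oocytes of the germinal vesicle stage, in which meiosis is arrested in prophase. The 2 input libraries held RNA without immunoprecipitation and the 2 TDRKH IP libraries RNA recovered with an antibody against TDRKH. No strain, age or number of oocytes is given in the labels, and nothing says that the libraries of a group came from separate collections. The p-values therefore measure the spread between these libraries, which may be technical. A control-antibody IP is not among the libraries analysed, so binding to TDRKH and carry-over in the IP cannot be told apart.

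piRNAs are small RNAs carried by PIWI proteins, and most are cut from long precursor transcripts of genomic loci called piRNA clusters. The 5′ end is usually a uridine (T in these files), and the 3′ end is trimmed after loading, so that 1 piRNA appears as a ladder of lengths with a common 5′ end. TDRKH has a tudor domain, through which it holds PIWI proteins, and is known for its part in 3′ end trimming. PIWIL3, which the study's title names, is expressed in oocytes of many mammals and is absent from mice. A piRNA made by the ping-pong cycle typically has A at position 10 and overlaps a partner on the other strand by its first bases.

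Nearly all reads of the cluster were forms of 1 piRNA. Its forms share a 5′ end and differ in length, and they are described here by length, with positions counted from 1 at the 5′ end of the read. In every form of 23 nt or more among the 10 most abundant sequences the annotation notes a mismatch at position 21, where the read differs from the cluster. The shorter forms, which end before or within 1 base of that position, carry no note. Of these 10 sequences, 8 were steps of 1 ladder, at 27, 26, 25, 24, 23, 22, 21 and 19 nt. The remaining pair ended in added A, as AA at 27 nt and as A at 25 nt. At the first added A of each the ladder has another base, while the second A of the AA form may be the ladder's own.

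The cluster's reads, with reads shared between loci divided equally, came to 18633 reads per 1000000 listed reads (RPM) in input 1 and 15425 RPM in input 2, against 14982 RPM in TDRKH IP 1 and 15501 RPM in TDRKH IP 2. Input 1 stood above the other 3 libraries, and input 2 lay between the IPs. The mean was 17029 ± 2268 RPM (SD, n = 2) in the inputs and 15241 ± 367 RPM (SD, n = 2) in the IPs. The log2 change from input to IP was -0.16 ± 0.08 (SE), with an adjusted p of 0.103 in edgeR's quasi-likelihood test over 5211 features. The cluster therefore did not pass the threshold of 0.05 in either direction, while 63.7% of the 935 piRNA loci tested were higher in the IP, 3.64% were lower, and their median log2 change was 0.36.

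That call turned on single libraries and on the scale. Without input 1 the change was -0.017 with an adjusted p of 0.723, while without input 2 it was -0.29 with an adjusted p of 0.0259, without TDRKH IP 1 -0.14 with 0.0114 and without TDRKH IP 2 -0.18 with 0.000531. With piRNA cluster reads as library size it was -0.29 with an adjusted p of 0.00785, and with TMM factors it turned positive and was called higher, at 1.77 with an adjusted p of 1.55e-07, where the median locus stood at 2.30 (edgeR in each case). piRNA cluster reads were 88.8% and 87.8% of the listed reads of the inputs and 96.9% and 96.8% of those of the IPs. The microRNAs miR-21, miR-132, miR-424 and miR-503 were listed for cumulus and granulosa cells, with no check that other cells lack them. They summed to 236 and 283 RPM in the inputs and to 1.26 and 2.71 RPM in the IPs. Most of the input sum was miR-21, at 199 and 227 RPM. The part of cumulus and granulosa cells in the result was not tested.

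The dominant piRNA, taken as all members with at most 1 mismatch to its first 18 bases and any 5′ end within a few bases, held 846 of the 3491 member sequences. It gave 20126 of 20473 member reads in input 1, 20896 of 21268 in input 2, 166863 of 171378 in TDRKH IP 1 and 171506 of 175836 in TDRKH IP 2. These are 98.3%, 98.3%, 97.4% and 97.5%, and both IPs were below both inputs (exact permutation test, two-sided, p = 0.333, the smallest that 2 against 2 libraries allow). Of the other members, 6 sequences had 2 mismatches to those bases, none had 3 or 4, and the rest had at least 5. As the annotation lists no name with 2 notes, forms with more than 1 mismatch to the cluster may be missing from the lists, so this gap says nothing of how many such forms exist.

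The most abundant sequence of the cluster was the 26 nt form, with 4520, 4950, 34126 and 33015 reads in inputs 1 and 2 and IPs 1 and 2. It ranked 4 among all sequences of each input and 2 among those of each IP. Its share of the cluster's reads was 22.1% and 23.3% in the inputs and 19.9% and 18.8% in the IPs, so both IPs were lower (means 22.7 ± 0.846% and 19.3 ± 0.804%, SD, n = 2, exact permutation p = 0.333). The 10 most abundant sequences of each library held 76.8% and 82.1% of the cluster's reads in the inputs and 77.4% and 74.8% in the IPs, and these ranges overlapped (exact permutation p = 0.667). The difference of the means, IP minus input, was -3.33 percentage points, and -5.99 without input 1, -0.679 without input 2 and -1.998 without TDRKH IP 2. Among the 20 most abundant sequences of a library, 2 were members in each input and 3 in each IP.

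Summed over its lengths, this 5′ end ranked 2 among the 922247 distinct first 18 bases of the files in each of the 4 libraries. It held 85.3% and 88.3% of member reads in the inputs and 86.1% and 84.3% in the IPs. Its level was 16183 and 13868 RPM in the inputs and 13244 and 13409 RPM in the IPs, a log2 change of -0.17 ± 0.15 with an adjusted p of 0.299 in edgeR's quasi-likelihood test. Among the 110 loci with at least 500 RPM in every library, only 1 other locus had a larger share of its reads on its leading 5′ end, in the inputs and in the IPs. The median of the other loci was 17.8% in the inputs and 20.04% in the IPs. The share of the single leading sequence stood out less, ranking 14 of 110 in the inputs and 16 of 110 in the IPs.

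A compact locus on chromosome 11, from 1348823 to 1354939, also had most of its reads on 1 5′ end, at 76.1% and 77.9% in the inputs and 78.6% and 77.0% in the IPs. On chromosome 24, from 17793334 to 17800783, the leading 5′ end held 35.5% and 40.6% in the inputs and 63.5% and 59.8% in the IPs. The chromosome 9 share was above both of these in each of the 4 libraries, at 86.8%, 89.9%, 88.4% and 86.5% when counted with divided reads as for those loci.

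The lengths of the dominant 5′ end ran from 18 to 27 nt and then stopped. Reads of 27 nt numbered 4567 and 5677 in the inputs and 33494 and 31628 in the IPs, while reads of 28 nt numbered 4, 7, 16 and 19. Over all members, reads of 28 nt or more were 0.186% and 0.169% of reads in the inputs and 0.208% and 0.191% in the IPs, against 9.75% and 10.5%, and 10.97% and 10.57%, for the other piRNA cluster reads.

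The annotation bears on that stop. In 15978916 notes read over all files no name carried 2 notes and no note fell in the last 2 bases of a read. The annotation also notes a mismatch at position 26 in some reads of 28 nt. The 10 member sequences of 28 nt or more with the dominant 5′ end included 5 with the usual base at position 21, and none with the usual base at both position 21 and position 26. A 28 nt read that continued the abundant 27 nt form would need 2 notes, so longer forms of this piRNA may be missing from the lists, and no upper limit of its length can be read from them. The last 2 bases of each form were likewise not compared with the cluster by the annotation.

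Within 18 to 27 nt the ladder was shorter in both IPs. The mean length of the dominant 5′ end was 24.9 and 25.1 nt in the inputs and 24.6 and 24.5 nt in the IPs. Reads of 26 nt and more made up 54.1% and 58.2% of it in the inputs and 47.9% and 45.9% in the IPs (means 56.1 ± 2.94% and 46.9 ± 1.45%, SD, n = 2). Reads of 18 to 20 nt made up 5.50% and 4.27% in the inputs and 8.55% and 9.74% in the IPs. The groups did not overlap in either class (exact permutation p = 0.333 for each).

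A shorter mean length in both IPs was common among abundant piRNAs. Of 315 piRNA 5′ ends with at least 200 RPM in every library, 69.8% were shorter in both IPs than in both inputs and 11 were longer in both. The median difference was -0.19 nt, and that of the chromosome 9 end was -0.48 nt, with 33 of the 315 more negative. Over all members the mean length was 24.7 ± 0.243 nt in the inputs and 24.3 ± 0.106 nt in the IPs (SD, n = 2, exact permutation p = 0.333). The difference was -0.36 nt, and -0.19 nt without input 2.

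When each length of the cluster was tested in the table of all loci and lengths, 3 of its 11 lengths tested were lower in the IP and 2 were higher, against 2.90% and 44.3% of all 4651 combinations. Reads of 27 nt were at 4247 and 4202 RPM in the inputs and 3019 and 2872 RPM in the IPs, a fall that passed the test (log2 change -0.52 ± 0.07, adjusted p = 0.000309, edgeR's quasi-likelihood test). Reads of 26 nt also fell, from 4668 and 4027 RPM to 3533 and 3523 RPM (log2 change -0.30 ± 0.08, adjusted p = 0.00903, edgeR). The lower call for 22 nt rested on 2400.5 RPM in input 1, since input 2 was at 1458 RPM and the IPs at 1398 and 1423 RPM (log2 change -0.45 ± 0.16, adjusted p = 0.0344, edgeR). Member reads of 22 nt, counted whole, numbered 2624 and 2011 in the inputs and 15993 and 16161 in the IPs. Those with the dominant 5′ end, unsubstituted in its first 18 bases, were 1730 and 1481, and 12992 and 12831. The others include forms with 1 substitution.

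The 2 lengths that rose were 23 nt and 20 nt. Reads of 23 nt were at 802 and 668 RPM in the inputs and at 990.4 and 1142 RPM in the IPs (log2 change 0.54 ± 0.11, adjusted p = 0.00291, edgeR). Reads of 20 nt were at 426 and 305 RPM in the inputs and at 499.6 and 597 RPM in the IPs (log2 change 0.59 ± 0.14, adjusted p = 0.00634, edgeR). Without input 1, 6 lengths were called higher and 1 lower. Without TDRKH IP 2, 1 length was called higher.

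Of the single sequences, 66 members reached 10 RPM in at least 2 libraries and were tested. In edgeR's quasi-likelihood test 23 were higher and 20 lower in the IP, against 41.9% higher and 19.9% lower of all 11786 sequences tested. The other 3425 members were under that level. The median log2 change was 0.41 over the tested members and 0.70 over all tested sequences, and with TMM factors, which brought the latter to 0.02, 2 members were called higher and 25 lower. A rise below about 0.7 on the scale of listed reads is thus no rise relative to the median sequence. Without TDRKH IP 1, 14 members were called higher, and without TDRKH IP 2, 2.

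Of the 10 ladder steps without an added base, 1 was called lower and 3 higher, against 19.9% and 41.9% of all sequences tested. The 27 nt form was at 3463 and 3459 RPM in the inputs and at 2291 and 2118 RPM in the IPs and was the step called lower (log2 change -0.65 ± 0.20, adjusted p = 0.00710, edgeR). The 26 nt form was at 4188 and 3656 RPM in the inputs and 3064 and 2985 RPM in the IPs, without overlap, but missed the threshold (log2 change -0.37 ± 0.20, adjusted p = 0.100, edgeR). The 25 nt form, at 1644 and 1479 RPM in the inputs and 1667 and 1562 RPM in the IPs, had overlapping groups (log2 change 0.05 ± 0.20, adjusted p = 0.838, edgeR).

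The 24 nt form was at 1670.4 and 1361 RPM in the inputs and at 1321 and 1411 RPM in the IPs, and the 22 nt form at 1494 and 1058 RPM in the inputs and 1122 and 1106 RPM in the IPs. Neither changed beyond its spread, with log2 changes of -0.15 ± 0.21 and -0.20 ± 0.22. The 23 nt form, at 475 and 394 RPM in the inputs and 559 and 640.4 RPM in the IPs, and the 21 nt form, at 305 and 273 RPM and 347 and 372 RPM, were higher in both IPs but missed the threshold (adjusted p = 0.0646 and 0.210, edgeR).

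At the short end of the ladder 3 steps passed the test. The 19 nt form rose from 376 and 251 RPM to 435 and 475 RPM (log2 change 0.54 ± 0.23, adjusted p = 0.0445, edgeR). The 20 and 18 nt forms of the ladder were the other two. The 20 nt form was at 218 and 188 RPM in the inputs and 347 and 407 RPM in the IPs, a log2 change of 0.90 ± 0.23. The 18 nt form was at 207 and 106 RPM in the inputs and 234 and 276 RPM in the IPs, a log2 change of 0.72 ± 0.26. Of the 10 steps only these last 2 lay above the median sequence (log2 change 0.70), each by less than its SE.

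Forms that ended in 1 or 2 added A were part of the ladder in every library. Such a form matches the ladder up to a base after which the long form continues with a base other than A. The second A of an AA ending was counted whether or not the long form has A there. AA forms were counted after positions 18, 20, 22 and 25. No read had an added A directly after positions 19, 23 or 26. The second A of the AA forms after positions 18, 22 and 25 may thus be the ladder's own base. Such forms, most of the AA reads, would then differ from the long form at 1 base only. Forms with 1 added A were 4.47% and 4.14% of the reads of the dominant 5′ end in the inputs and 6.90% and 7.92% in the IPs. Forms with AA were 5.07% and 5.29% in the inputs and 5.73% and 5.97% in the IPs. Both classes were higher in both IPs (exact permutation p = 0.333 for each).

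The added A differed along the ladder. After position 25 it was on 32.3% and 33.9% of reads in the inputs and 35.5% and 38.3% in the IPs, most of them AA. As the annotation notes a mismatch at position 26 in some reads of 28 nt, the ladder's base there may differ from the cluster's. Here A is called added against the ladder only, and whether it is the cluster's own base was not tested. After position 24 the share was 15.2% and 18.3% in the inputs and 23.7% and 24.6% in the IPs. After position 22 it was 13.3% and 10.1% in the inputs and 8.27% and 10.1% in the IPs, so this step did not share the direction of the 2 before it. Of these reads, 160 and 91 in the inputs and 327 and 385 in the IPs ended in AA. After position 21 the groups overlapped, at 9.07% and 3.05% against 3.94% and 4.12%. Both IPs were above both inputs after position 20 (19.5% and 13.1% against 21.1% and 23.3%) and after position 18 (25.7% and 28.6% against 31.9% and 33.5%).

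The 27 nt form ending in AA was at 641 and 654 RPM in the inputs and at 690.5 and 715 RPM in the IPs, and did not pass the test (log2 change 0.12 ± 0.21, adjusted p = 0.626, edgeR). The 25 nt form ending in A was at 305 and 309 RPM in the inputs and 415 and 465 RPM in the IPs (log2 change 0.52 ± 0.22, adjusted p = 0.0438, edgeR). Of 10 sequences tested with an added A or AA, 5 were higher, 1 was lower and 4 were not called, near the 41.9% higher and 19.9% lower over all sequences tested. The lower 1 was the 24 nt form ending in AA, at 148 and 67.2 RPM in the inputs and 29.4 and 34.8 RPM in the IPs (log2 change -1.73 ± 0.31, adjusted p = 1.75e-05, edgeR).

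At position 21 nearly every read of 23 nt or more with the dominant 5′ end had the same base, which differs from the base the annotation gives for the cluster. The usual base was on 14134 of the reads of input 1, 15911 of input 2, 116565 of TDRKH IP 1 and 115126 of TDRKH IP 2, or 98.4%, 98.97%, 99.6% and 99.6%. The cluster's base was on 87, 69, 174 and 185 reads, or 0.605%, 0.429%, 0.149% and 0.160%. Another base was on more reads than the cluster's own in every library, with 130, 87, 278 and 286. The 26 nt form that matches the cluster at this position had 26 and 19 reads in the inputs and 48 and 51 in the IPs, far under the 26 nt form with the usual base.

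With so large a part of its reads noted, the locus was among the higher ones for this measure. Reads with a mismatch note were 83.8% and 86.4% of member reads in the inputs and 81.1% and 80.2% in the IPs. The locus ranked 17 of 110 in the inputs and 18 of 110 in the IPs, where the median of the other loci was 67.4% and 59.0%.

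Reads with 1 substitution in the first 18 bases made up part of the calls for lower sequences. Among reads of up to 22 nt with the dominant 5′ end, they were 31.6% and 22.9% in the inputs and 6.91% and 7.07% in the IPs (means 27.3 ± 6.18% and 6.99 ± 0.119%, SD, n = 2, exact permutation p = 0.333). Every one of the 18 positions was substituted in each library. The median per position was 1.48% and 1.23% in the inputs and 0.353% in each IP. Reads of 23 nt or more are left out of these shares, since they already carry the note at position 21 and a second one is not listed.

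All 13 tested member sequences classed as substitutions were lower in the IP, against 19.9% of all sequences tested. This class is wider than the reads of up to 22 nt above, since it also holds forms of 25, 26 and 27 nt. A form of 26 nt in it, with 26 and 19 reads in the inputs and 48 and 51 in the IPs, has the cluster's own base at position 21. Of 21 tested 5′ ends with 1 substitution, 19 were lower, against 24.4% of all 5′ ends. Another 5 of the 20 lower sequences differed from the ladder only in their last 1 or 2 bases. The 3 with the largest falls were 22 nt forms with 1 substitution each. The first was at 38.9 and 12.6 RPM in the inputs and at 2.78 and 3.71 RPM in the IPs (log2 change -2.93 ± 0.43, adjusted p = 7.33e-07, edgeR). The second was at 31.5 and 20.7 RPM in the inputs and 2.78 and 4.52 RPM in the IPs (log2 change -2.81 ± 0.39, adjusted p = 2.54e-07, edgeR). The third was at 35.2 and 18.5 RPM in the inputs and 4.13 and 4.97 RPM in the IPs (log2 change -2.53 ± 0.38, adjusted p = 1.17e-06, edgeR). Input 1 was above input 2 in all 3.

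A similar measure moved with the libraries among the most abundant 5′ ends of any name, the chromosome 9 end included. It took reads of all lengths and left out variants with 5% or more of the reads of the 5′ end they differ from. Among the 50 most abundant 5′ ends of the files, 100% had a lower share of 1-substitution reads in both IPs than in both inputs, with medians of 28.4% and 20.1% in the inputs and 5.35% and 5.46% in the IPs. Counted in this way over reads of all lengths, the chromosome 9 end had 8.08%, 4.51%, 1.76% and 1.92%. Without input 1, 5 member sequences and 5 member 5′ ends were called lower, and without input 2, 9 and 8. The part of library preparation or depth in these shares was not tested.

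Other 5′ ends of the same piRNA held a larger share in both IPs. Over its reads, 93.9% and 93.7% in the inputs and 89.8% and 87.9% in the IPs began at the dominant 5′ end, substitutions included. Reads beginning 1 base later were 2.64% and 2.69% in the inputs and 4.44% and 5.40% in the IPs. Reads beginning 1 base earlier were 1.71% and 1.83% in the inputs and 3.25% and 3.75% in the IPs. The groups did not overlap at either end (exact permutation p = 0.333 for each).

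The 5′ ends with the most reads after the dominant one began 1, 2 and 3 bases later and 1 and 2 bases earlier. In edgeR's quasi-likelihood test over 10400 5′ ends, of which 35.3% were higher and 24.4% lower, 90 ends of members were tested, with 33 higher and 19 lower. The members were close to these background shares. Without TDRKH IP 1, 14 member ends were called higher, and without TDRKH IP 2, 12. Of the 7 shifted ends tested without a substitution, 3 were higher and none was lower (median log2 change 0.70, against 0.54 over all ends).

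The end 1 base later was at 461 and 407 RPM in the inputs and 659.8 and 829 RPM in the IPs (log2 change 0.79 ± 0.18, adjusted p = 0.000847, edgeR). The end 1 base earlier was at 255 RPM in each input and 443 and 542 RPM in the IPs (log2 change 0.95 ± 0.19, adjusted p = 0.000187, edgeR). The end 2 bases earlier was at 82.5 and 83.5 RPM in the inputs and at 149 and 168 RPM in the IPs (log2 change 0.93 ± 0.22, adjusted p = 0.00121, edgeR). In these 3 both IPs were above both inputs.

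Neither of the ends that begin 2 and 3 bases later passed the test. The first was at 178 and 139 RPM in the inputs and 174 and 209 RPM in the IPs (log2 change 0.34 ± 0.21), and the second at 47.3 and 36.9 RPM in the inputs and 48.3 and 62.7 RPM in the IPs (log2 change 0.43 ± 0.27). Their adjusted p were 0.160 and 0.162 in edgeR's test. The remaining 2 of the 8 ends with the most reads were substitutions of the dominant one, at positions 2 and 1. They fell from 156 and 59.8 RPM to 20.2 and 20.1 RPM (log2 change -2.40 ± 0.32, adjusted p = 1.39e-06, edgeR) and from 105 and 38.4 RPM to 15.0 and 16.3 RPM (log2 change -2.19 ± 0.34, adjusted p = 8.20e-06, edgeR).

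The length ladder of the later end followed that of the dominant one. Reads of 25 and 26 nt were 32.9% and 30.5% of the end 1 base later in input 1 and 30.7% and 35.0% in input 2, against 29.1% and 27.2% in TDRKH IP 1 and 29.2% and 26.1% in TDRKH IP 2. Its mean length was 24.4 and 24.5 nt in the inputs and 24.2 nt in each IP. Its last steps therefore ended at the same bases as the 26 and 27 nt forms of the dominant end.

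The ends that begin earlier had a shorter ladder in the lists. The annotation notes a mismatch at the base before the dominant 5′ end in most reads that begin there or 1 base before it. Reads of 23 nt held 42.5% and 46.7% of the end 1 base earlier in the inputs and 42.5% and 40.0% in the IPs. Of 11536 reads that began 1 base earlier with the noted base, 32 were of 24 nt or more, and none of these had the usual base at the position noted in the ladder. Reads that began there with the cluster's base numbered 738, of which 598 were of 24 nt or more. As each read with a first note cannot carry another in the lists, the lengths of these ends cannot be compared with those of the dominant end.

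The sequences with the largest rises all had shifted 5′ ends, at 19 and 20 nt beginning 1 base later and at 23 nt beginning 2 bases earlier. They were rare in the inputs, with 3 and 2, 3 and 7, and 3 and 14 reads, so their rises rest on few reads. In the IPs they had 130 and 181, 162 and 205, and 290 and 321 reads. The log2 changes were 2.75 ± 0.61, 2.01 ± 0.52 and 1.99 ± 0.45 (adjusted p = 0.000358, 0.00169 and 0.000445, edgeR). Of 25 tested sequences with a shifted 5′ end and no substitution in the first 18 bases, 14 were higher and none was lower, against 41.9% and 19.9% of all sequences tested.

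First bases followed the dominant 5′ end. T was the first base of 94.4% and 95.0% of member reads in the inputs and 92.9% and 91.7% in the IPs (means 94.7 ± 0.428% and 92.3 ± 0.814%, SD, n = 2, exact permutation p = 0.333). In the other piRNA cluster reads it was 87.5% and 88.4% in the inputs and 88.5% and 87.7% in the IPs.

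A at position 10, typical of ping-pong piRNAs, was rare. It was on 0.948% and 1.04% of member reads in the inputs and 1.46% and 1.39% in the IPs (exact permutation p = 0.333), against 41.8% and 41.5%, and 42.8% and 42.3%, in the other piRNA cluster reads. Over sequences of this locus only, the direction turned, with 0.155% and 0.130% in the inputs and 0.0872% and 0.0732% in the IPs. As nearly all member reads were forms of 1 piRNA, these shares were mostly set by its own base at position 10. They do not describe ping-pong in the cluster as a whole.

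Hardly any reads came from the other strand of the dominant piRNA. Members with 14 bases complementary to either end of its first 18 bases numbered 11 sequences, with 1, 1, 15 and 6 reads in inputs 1 and 2 and IPs 1 and 2. None of the members began with the complement of its first 10 bases, the position of a ping-pong partner. Under other names, 22 sequences began with that complement, with 3, 0, 17 and 31 reads, and they were matched over those bases only. A count of 0 allows up to 0.00719% of the member reads of the inputs and 0.000864% of those of the IPs, as 3 counts over the group and for counting error only.

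The rest of the cluster was sparse. Sequences of this locus only, other than the dominant piRNA, numbered 271, with 30, 31, 324 and 321 reads. The most abundant of those without a note are shown, since they match this cluster without a note and carry no other name.
25 nt: tagatcttctgtataacttgctgca
26 nt: tagatcttctgtataacttgctgcag
25 nt, another 5′ end: ttcctttcaaaatattactgctcag
The first had 0, 4, 43 and 45 reads, the second 1, 3, 16 and 25, and the third 3, 2, 7 and 7. They were thus at or under 4.07 RPM in each library, below the level at which sequences were tested.

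Another 2374 member sequences had names in several piRNA loci, with a median of 105 loci and at most 445. They gave 317 and 341 reads in the inputs and 4191 and 4009 in the IPs, or 1.55% and 1.60%, and 2.45% and 2.28%, of member reads. Both IPs were above both inputs (exact permutation p = 0.333). The most abundant had 13, 11, 180 and 221 reads and is shown because it was the only tested member outside the dominant piRNA.
19 nt, several loci: ttggacacgactgaagcga
Its log2 change of 0.86 did not pass the test. Of the 61 tested 5′ ends outside the dominant piRNA, whose counts include reads of other loci, 30 were higher and none was lower, against 35.3% and 24.4% of all 5′ ends tested.

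At an equal number of reads, the libraries differed in how many forms of the dominant piRNA they held. With 20126 reads drawn from each, 476 distinct sequences were expected in input 1, 392 in input 2, 289 in TDRKH IP 1 and 303 in TDRKH IP 2. The inputs were higher, and the 1-substitution reads described above moved with this number. Over all members, with 20473 reads drawn, the numbers were 689, 616, 619 and 607, with only input 1 apart from the others.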

How the data were processed

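Each of the 4 deposited files lists the sequences of 1 library with their read counts (whole numbers, not normalized by the authors) and the names given by the unitas annotation tool, per the file names; no source used here gives its settings or build. Extraction used TRIZOL, per the labels, and libraries were sequenced single-end on a NextSeq 500. Listed reads were 1079364 and 1354003 in the inputs and 11138905 and 11060320 in the IPs, so the inputs limit precision. Counts include PCR copies, and unannotated reads were not analysed here. Libraries of a group differed by more than sampling noise (chi-square of 6.78 and 6.59 per degree of freedom over sequences with at least 100 reads). This spread may be technical and does not show separate collections. Each library was counted as 1 replicate.

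Overlapping cluster names were merged into 956 loci. Sequences, 5′ ends (first 18 bases) and loci split by length needed 10 RPM in 2 libraries; loci passed filterByExpr, with shared reads divided equally and rounded. For IP against input, edgeR 4.0.16 in R 4.3.3 fitted its quasi-likelihood model, with listed reads as library size, and p adjusted by Benjamini-Hochberg over the whole table. The SE is the change divided by the root of F. Shares were compared by exact permutation tests (scipy 1.17.1). The models were also run on simulated counts with 200 changed features per table. Far more sequences were called in the data, so that run does not show how the models perform here. Alternatives were TMM factors, DESeq2 1.42.0, piRNA reads as library size, no filter, single-locus or unnoted sequences, 24 to 32 nt only, a replicate block and leaving out each library.

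Sequences were named as the top 10 by mean RPM and, per direction, the 3 further ones with the largest called change and no overlap; named 5′ ends were the 8 with the most reads. Other sequences shown were chosen after their values were seen. The members and lists were chosen with earlier results of these data known. The sequence of the dominant piRNA and of its forms is not reported here.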

Additional observations from a re-analysis of the deposited data

Results flagged for a closer look

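Some reads of the dominant piRNA stood outside the comparisons because the annotation gave them no name of this cluster. They were found by bases 3 to 18 of the dominant 5′ end, in 22 sequences with 52 and 48 reads in the inputs and 489 and 592 in the IPs. They came to 0.255% of all reads with these bases in the inputs and 0.324% in the IPs (means, n = 2), above the level that 3 counts would give. No control library bears on them.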

How the results depend on the processing

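The libraries analysed were 2 against 2, so exact tests could not go below 0.333 and only the edgeR and DESeq2 fits could pass the threshold. The cluster's log2 change turned positive and was called higher with TMM factors (1.77, adjusted p = 1.55e-07 in edgeR) and with DESeq2 (2.17, adjusted p = 3.94e-78), turned positive without a call over unnoted sequences (0.21, adjusted p = 0.309 in edgeR), was called lower with piRNA reads as library size (-0.29), and ranged from -0.29 to -0.017 when 1 library was left out. The lists hold no form that needs 2 notes, which limits every length and substitution share, and the inputs' depth limits rare forms.

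Member sequences called higher, 23 in the report, were 2 with TMM factors, 0 with DESeq2, 0 without a filter and 8 over unnoted sequences, and 2 to 28 when 1 library was left out. Those called lower, 20 in the report, were 0 without a filter, 2 over unnoted sequences and 5 to 17 when 1 library was left out. Member 5′ ends called higher, 33 in the report, were 11 with TMM factors, 5 with DESeq2, 0 without a filter, 4 over single-locus sequences, 7 over unnoted sequences and 12 to 31 when 1 library was left out. Those called lower, 19 in the report, were 0 without a filter, 0 over unnoted sequences and 5 to 18 when 1 library was left out. Lengths called higher, 2 in the report, were 0 with TMM factors, with DESeq2 and without a filter, 4 over unnoted sequences, and 1 to 6 when 1 library was left out. Those called lower, 3 in the report, were 0 without a filter and 1 to 4 when 1 library was left out. Without a filter many more features are tested, and edgeR then gave 234 of 3491 member sequences and 131 of 1413 member 5′ ends an unadjusted p under 0.05, and 3 of 14 lengths. Other counts of 0 were in 1 direction only. In these fits the members with an unadjusted p under 0.05 in either direction numbered 28 sequences and 5 lengths with DESeq2, 6 lengths with TMM factors and 8 5′ ends over unnoted sequences.

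The difference in the share of the 10 most abundant sequences, IP minus input, went from -3.33 to 2.24 percentage points over unnoted sequences. That of A at position 10 went from 0.434 to -0.0620 over single-locus sequences and to -0.100 over unnoted ones. Apart from what the alternatives' construction shows (fewer or more features tested, fewer libraries), the cause was not tested. The differences in the share of the most abundant sequence, in the share of first T and in mean length kept their direction under each alternative. No alternative was run for the shares of added A, shifted 5′ ends, substitutions, length classes or several-locus members. With the replicate number as a block, 21 sequences were higher and 20 lower, 31 and 19 5′ ends, and 2 and 2 lengths, and the cluster change was -0.15 (adjusted p = 0.117, edgeR). Same-numbered input and IP libraries deviated together with a correlation of 0.312 over 646 sequences, which with 2 pairs does not show pairing.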
